A study of Oryza sativa with 2 samples.

Results

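HSF23, HSF09 and HSP101 are 3 rice genes of the heat shock response, of 15798 genes with a probe of their own, and each was read by 1 probe among the 22574 measured on both arrays. They were matched by gene symbol or synonym, with or without the prefix Os. They had been chosen from the measured ratios themselves, HSF23 and HSF09 because they were high in irradiated seedlings and HSP101 because it was the lowest of its gene list. Their ratios of irradiated over control are therefore given as a description, with no test. HSF23 (LOC4347259) is also named HSFB1, HSF09 (LOC4332113) is also named HSFA9, and HSP101 (LOC4339343) is also named CLPB1. HSF09 is not the gene with the synonym HSF9, which is HSF04 in the same numbering.

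The irradiated group was whole seedlings, 7 days old, exposed for 2 h 35 min to carbon ion beams from HIMAC, a heavy-ion accelerator. The control group was healthy seedlings without the treatment, and both were grown on MS medium, a plant culture medium, in a growth chamber. Neither radiation dose nor rice cultivar is given in the sources used here. The 2 arrays carry the same replicate number with the dyes Cy5 and Cy3 swapped. They were read as 1 pair of RNA extracts, which the labels do not state outright. So there was 1 replicate per group and no replicate check of any difference. Arrays have no read depth, and their number limits the precision.

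Heat shock factors are transcription factors that bind heat shock elements in promoters. Class A factors carry activator motifs and switch on chaperone genes when proteins misfold, while class B and class C factors lack these motifs. In Arabidopsis, class B1 and B2b factors repress other heat shock factor genes. HSP101 is the cytosolic ClpB-type chaperone of the HSP100 family, a ring-shaped enzyme that pulls proteins out of aggregates together with HSP70 and is needed for thermotolerance in plants.

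All ratios below are log2 of irradiated over control after each array's trend of ratio with spot intensity was removed. The "Cy5 array" carried irradiated RNA in Cy5 and control RNA in Cy3, and the "Cy3 array" carried them the other way round. Where values of both arrays stand without their names, the Cy5 array comes first. The direction is likely and not certain, since it takes the deposited values as Cy5 over Cy3 on both arrays, which neither labels nor file state. With Cy3 over Cy5 every sign would turn, and HSF23 and HSF09 would be lower and HSP101 higher. After turning, the arrays correlated at r = -0.28 over all 22574 probes and at r = 0.54 over the 4515 probes of the brightest 2 deciles, across probes, which are not replicates. In every dimmer decile r was negative. It was -0.062 in intensity decile 8, which holds HSF23, and -0.51 in decile 2, which holds HSP101. Gene names rest on a probe numbering that was recovered from the values. With it, intensities of 2 probes of a gene correlated at 0.23 over 1859 genes, against 0.012 with the numbers as listed. The correlation of 0.23 is low and comes from the same values, so it is no independent check of the gene names. The chlorophyll-binding protein genes CAB1R and CAB2R, markers of green tissue, were at intensity percentiles 99.7 and 99.8. The 17 probes taken as root markers by PIP, TIP, HKT, AMT and RSS names ranged from percentile 0.82 to 97.7. Whether each of these genes is specific to roots was not checked. In whole seedlings, fewer cells of a type and less RNA per cell cannot be told apart.

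HSF23, the class B1 factor, was the highest of all heat shock factor probes. On the Cy5 array its deposited value of 0.863 log10 units equalled 533 for irradiated RNA in Cy5 to 73 for control RNA in Cy3, in lowest terms. On the Cy3 array the value of -0.361 equalled 934 for irradiated RNA in Cy3 to 407 for control RNA in Cy5. Both arrays thus held more signal from irradiated seedlings even before the intensity trend was removed.

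The trend at the intensity of the HSF23 spot was 0.225 log10 units on the Cy5 array and 0.460 on the Cy3 array. After its removal the log2 ratio was 2.12 on the Cy5 array and 2.73 on the Cy3 array, with a mean of 2.42, or 5.36-fold. Of all 22574 probes, 95 had a higher mean. Each array deviated from that mean by 0.30. In the same decile of probes by intensity the robust SD of this deviation, which holds noise and dye bias, was 0.27, and it is called the array-deviation SD below. The HSF23 mean was 8.98 times that SD. The SD comes from dye-swapped arrays read as sharing their extracts, so it was taken to hold no spread between seedlings. Such multiples, here and below, are therefore no test of a difference between groups. Its spot lay at intensity percentile 77.7, in a decile where both arrays were up by 2-fold or more for 3.72% of probes.

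HSF09, listed as a class A factor, was the other heat shock factor past 2-fold upward on both arrays, with log2 ratios of 1.27 and 1.23 and a mean of 1.25, or 2.38-fold. Each array deviated from the mean by 0.023, where the array-deviation SD of its decile was 0.20. The mean was 6.11 times that SD. Its spot lay at intensity percentile 88.6, in a decile where 5.01% of probes passed the same fold upward.

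The HSF09 ratio on the Cy3 array rested on the intensity trend. The deposited values were 0.694 on the Cy5 array, or 193 for irradiated to 39 for control RNA, and 0.170 on the Cy3 array, or 919 for irradiated to 1358 for control RNA. So the Cy3 array as deposited had less signal from irradiated than from control seedlings. The trend there was 0.539 log10 units, and 0.311 on the Cy5 array. With each array centred on its median instead, HSF09 stood at 2.14 and 0.11, with a mean of 1.12, and was no longer 2-fold higher on both arrays. HSF23 then stood at 2.70 and 1.87, with a mean of 2.28. The intensity of the HSF09 spot on the Cy5 array also includes a common factor of 8 that was put back into the ratio's terms. Without restored factors the mean of HSF09 was 2.09 and that of HSF23 was 2.69.

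Among the 19 heat shock factor probes, 2 passed 2-fold upward on both arrays and 0 passed it downward. Over all probes 1.91% passed it upward and 0.275% downward. The platform annotation does not list 4715 of the 22575 deposited probes, and the all-probe shares include those measured. Among the 17839 probes with 1 gene, 398 passed 2-fold upward and 56 downward on both arrays. Both of the higher factor probes are members chosen for being high, so nothing is read from their count.

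HSP101 was lower in irradiated seedlings on both arrays, but short of 2-fold on the Cy5 array. Its log2 ratio was -0.63 on the Cy5 array and -1.15 on the Cy3 array, with a mean of -0.89, or 1.85-fold lower. The deposited values were -0.452 on the Cy5 array, or 53 for irradiated to 150 for control RNA, and 0.136 on the Cy3 array, or 65 for irradiated to 89 for control RNA. The trend was -0.262 and -0.208 log10 units at that intensity. As deposited, then, both arrays had less signal from irradiated than from control seedlings.

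The HSP101 spot was dim, at intensity percentile 13.9, where percentiles rank the brightness of spots and not the levels of transcripts. In its decile the array-deviation SD was 0.69, so its mean was 1.29 times that SD, against 8.98 times for HSF23. The ratio of HSP101 therefore lay near the spread between dye-swapped arrays at that brightness. At 1.5-fold on both arrays, a threshold HSP101 passed, 1.64% of all probes were lower and 3.73% were higher, and in its decile 1.68% were lower. With each array centred on its median, HSP101 stood at -1.67 on the Cy5 array and 0.22 on the Cy3 array, where the sign turned.

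**Figure D1:**
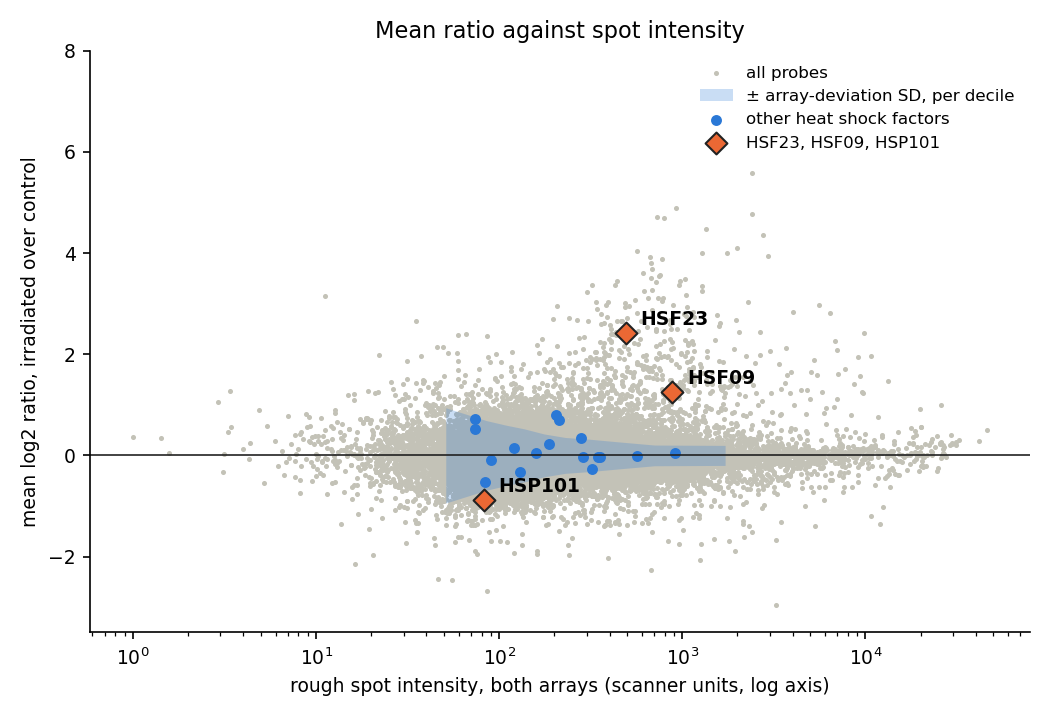
Mean log2 ratio of irradiated over control (vertical axis) against rough spot intensity in scanner units (horizontal log axis) for 22574 probes in grey, other heat shock factors in blue and the 3 members as orange diamonds. The blue band spans plus and minus the array-deviation SD in each decile of probes. HSF23 at 2.42 and HSF09 at 1.25 lie above it. HSP101 at -0.89 lies a little below its lower edge, at 1.29 times the SD of its decile.

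The gene table names 23 heat shock factor genes, of which 18 had a probe, and 16 genes with 17 probes remained besides the members. HSF08, HSF14, HSF16, HSF17 and HSF22 had none in the annotation used. Of these 17 probes, 0 passed 2-fold upward and 0 downward on both arrays, where the shares over all probes were 1.91% and 0.275%. The factor probes past 2-fold upward had been taken out as members, so the upward count was fixed by that choice and nothing is read from it. The median of all 19 factor probes was 0.048, against -0.0076 for all probes.

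Among class A factors, HSF15 followed HSF09. It is the gene SPL7, whose loss gives leaf lesions in rice, and it stood at 0.998 and 0.58, with a mean of 0.79. HSF25 (HSFA2C) had 2 probes that disagreed, at 0.69 and -0.03. Its gene entry also carries the names ARD1 and OsIDI1, so which transcript each probe reads is not settled by the names.

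HSF06 (HSFA5) had 1.07 on the Cy5 array and -0.37 on the Cy3 array, so its sign differed between arrays. HSF11 (HSFA2A), with 0.53 and -0.43, did the same although its spot was bright. HSF18 (HSFA2B) had a mean of 0.15. HSF13, listed as HSFA1, the master regulator of the heat response in tomato, stood at 0.08 and -0.12.

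HSF12 (HSFA2E) and HSF04 (HSFA4B) were likewise near 0, with means of -0.03 and -0.04. HSF07 (HSFA3) averaged -0.27 and HSF01 (HSFA6B) averaged -0.33. These class A factors thus spanned both signs.

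In class B, HSF23 had 3 relatives with a probe. HSF19 (HSFB4B) stood at 0.79 and 0.27, from a dim probe. HSF24 (HSFB2C) averaged 0.04 and HSF21 (HSFB2B) averaged -0.09, and in each the arrays had opposite signs.

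All 3 class C probes lay in intensity deciles 1 to 5. HSF03 (HSFC1B) stood at 0.59 and 0.85, with a mean of 0.72. HSF05 (HSFC2A) averaged 0.22. HSF02 (HSFC1A) had -1.16 and 0.11, with a mean of -0.53, the lowest of the factors. HSF09 at 1.25 and HSF15 at 0.79 were the factors just inside and just outside the choice of members, which these same ratios fixed. In the order of means, neighbours below HSF15 were closer together than the array-deviation SDs of 0.20 to 0.69 in their deciles.

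**Figure D2:**
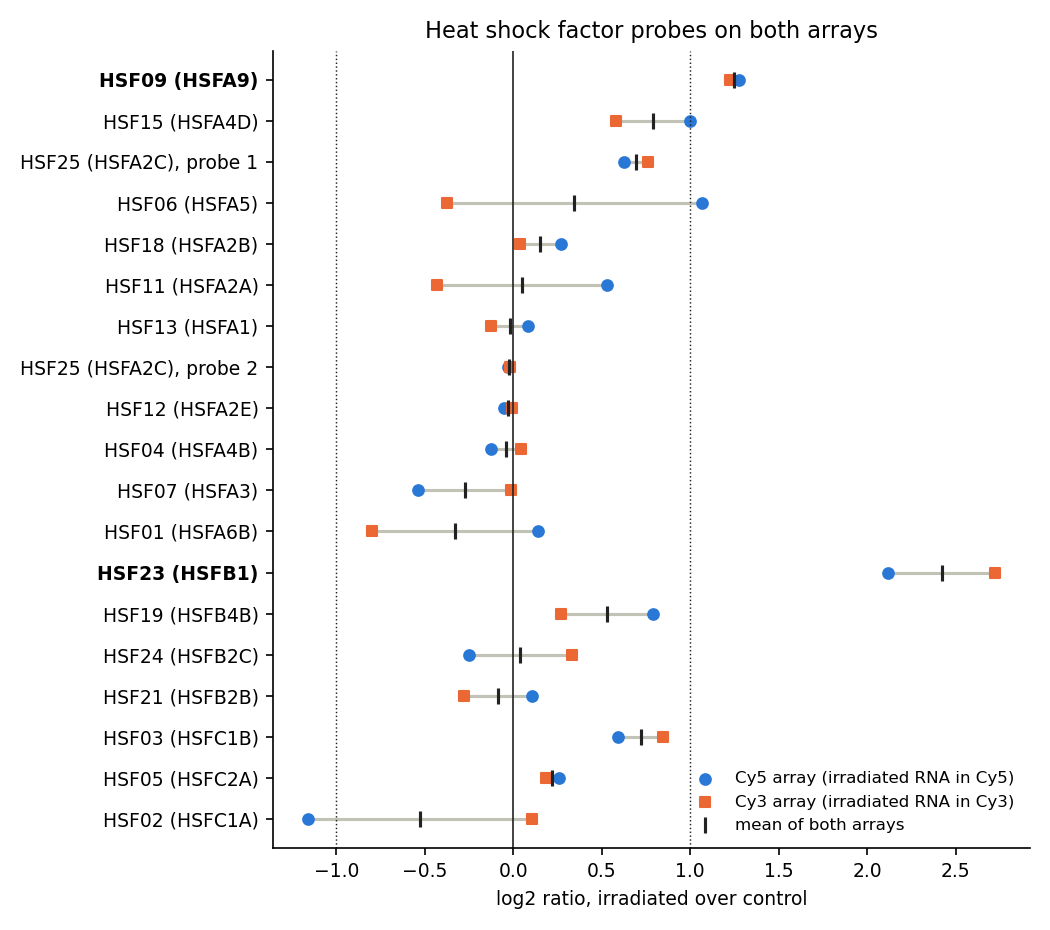
Log2 ratio of irradiated over control for the 19 heat shock factor probes, grouped by class A, B and C, with a blue circle for the Cy5 array, an orange square for the Cy3 array and a black tick for their mean. Dotted lines mark 2-fold; HSF23 and HSF09 are the probes with both arrays to the right of the upper line.

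HSP101 was set beside the other chaperones. The list held 45 probes of 42 genes with chaperone names. On both arrays 1 passed 2-fold upward and 0 downward, where the shares over all probes were 1.91% and 0.275%. These counts are near the background and say nothing particular of chaperones. The list median was -0.018. HSP101 had the lowest mean of the list, but it had been chosen for being low, so nothing is read from that rank.

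The 1 higher probe belonged to the family of HSP101. CLPD1 (LOC4329520), an HSP100 protein of the ClpD type, stood at 2.78 and 2.41, with a mean of 2.59, or 6.04-fold. In Arabidopsis, ClpD is the chloroplast protein ERD1, named as early responsive to dehydration. As deposited, the Cy5 array equalled 2487 for irradiated to 179 for control RNA, and the Cy3 array 1351 for irradiated to 873 for control RNA. The CLPD1 mean was 12.7 times the array-deviation SD of its decile, and 77 probes had a higher mean. In that decile 5.01% of probes passed 2-fold upward on both arrays.

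CLPD1 and HSP101 had the highest and the lowest mean among the 8 probes of the HSP100 family, and the others were near 0. CLPD2 averaged -0.16. The chloroplast unfoldases CLPC1, with 2 probes at 0.05 and 0.03, CLPC2 at -0.17 and CLPC3 at -0.07 feed proteins to the Clp protease. CLPB2, a ClpB protein like HSP101, stood at -0.01 from a dim probe.

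Ratios were near 0 for HSP90. Its genes HSP81-3 and HSP82, which keep client proteins near their active fold, averaged 0.08 and 0.04 from bright probes. BIP4, an HSP70 of the endoplasmic reticulum, was the 1 HSP70 with a matching name. It stood at 0.95 and 0.07, from a dim probe at intensity percentile 21.9.

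J proteins, which bring clients to HSP70, had 6 probes with means between -0.03 for ERDJ3A and 0.49 for DJA7A, with 0 past 2-fold on both arrays, again near the shares over all probes of 1.91% upward and 0.275% downward. The 1 gene with the name chaperonin (LOC4340394) averaged 0.01. No cochaperone of the list had a matching name.

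Small heat shock proteins hold unfolding proteins until HSP70 and HSP101 take them over, and are typical targets of class A factors. None of their 15 probes passed 2-fold or 1.5-fold in the same direction on both arrays (0 higher and 0 lower). Over all probes the shares were 1.91% higher and 0.275% lower at 2-fold, and 3.73% and 1.64% at 1.5-fold, so 0 of 15 is near the background and says nothing particular of this class. Means ran from 0.67 for HSP17.9A, at 0.99 and 0.35, to -0.52 for the dim probe of HSP26.7, and their median was -0.063. By single array the median of these probes was 0.50 on the Cy5 array and 0.044 on the Cy3 array, so the arrays differed. The widest disagreement was that of HSP18.8, with 1.67 on the Cy5 array and -2.04 on the Cy3 array.

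Of other classic targets of heat shock factors, the ascorbate peroxidases, which remove hydrogen peroxide, had 3 probes. APX1 averaged 0.21 and APX2 had probes at 0.21 and 0.10. All 3 had arrays of opposite sign.

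Protein disulfide isomerases fold secreted proteins in the endoplasmic reticulum and were mostly just below 0. Of 12 probes, 9 had a mean below 0, where 11496 of all 22574 probes did, and their median was -0.24. On both arrays 6 were below 0 and 0 were above, while 22.3% of all probes were below and 22.6% above. The lowest was a probe of PDIL5-1 (LOC4347226), at -0.56 and -0.22, while its other probe averaged 0.08, and the highest was PDIL6-1 (LOC4332486) at 0.14. No disulfide isomerase probe reached 1.5-fold in either direction on both arrays. With median centring 10 means were below 0 with a median of -0.22, but 2 probes were below 0 on both arrays. With Cy3 over Cy5 the median would be 0.24.

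**Figure D3:**
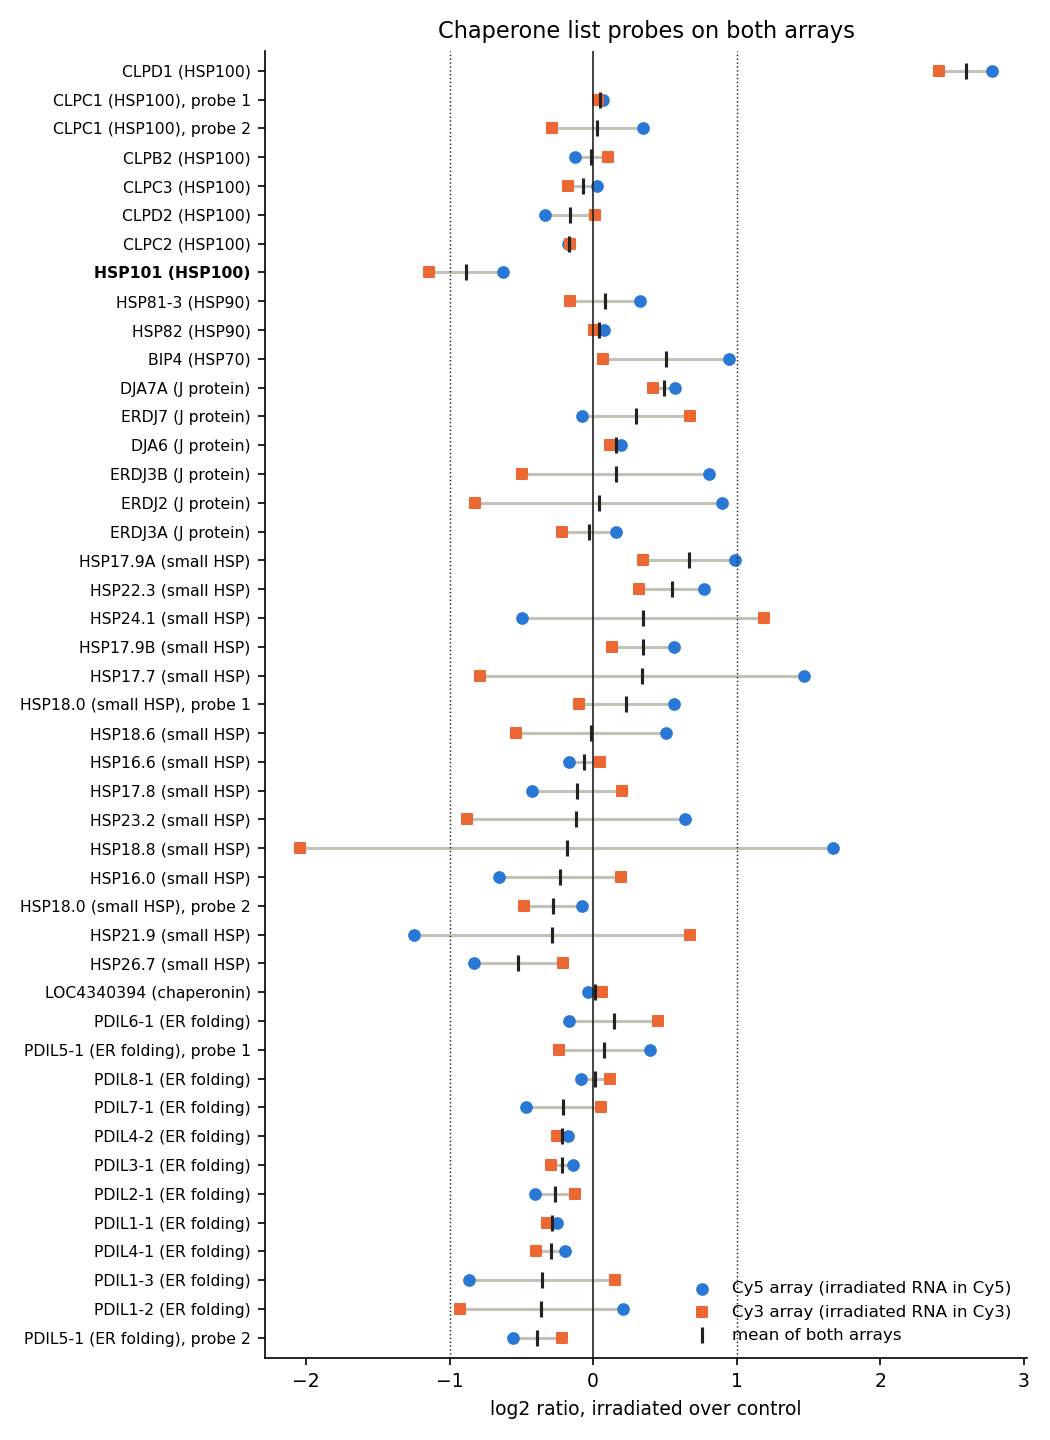
Log2 ratio of irradiated over control for the 45 chaperone list probes, by class, with a blue circle for the Cy5 array, an orange square for the Cy3 array and a black tick for their mean. CLPD1 is the 1 probe beyond 2-fold (dotted lines) in the same direction on both arrays. HSP101, chosen for being low, has the lowest mean, and the means of the disulfide isomerases (ER folding) lie between -0.39 and 0.14.

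Set against all probes, HSF23, HSF09 and CLPD1 lay in the corner where both arrays were high. Another group of probes was low on the Cy5 and high on the Cy3 array, so that its ratios went with the dye, and none of the 3 members lay there.

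**Figure D4:**
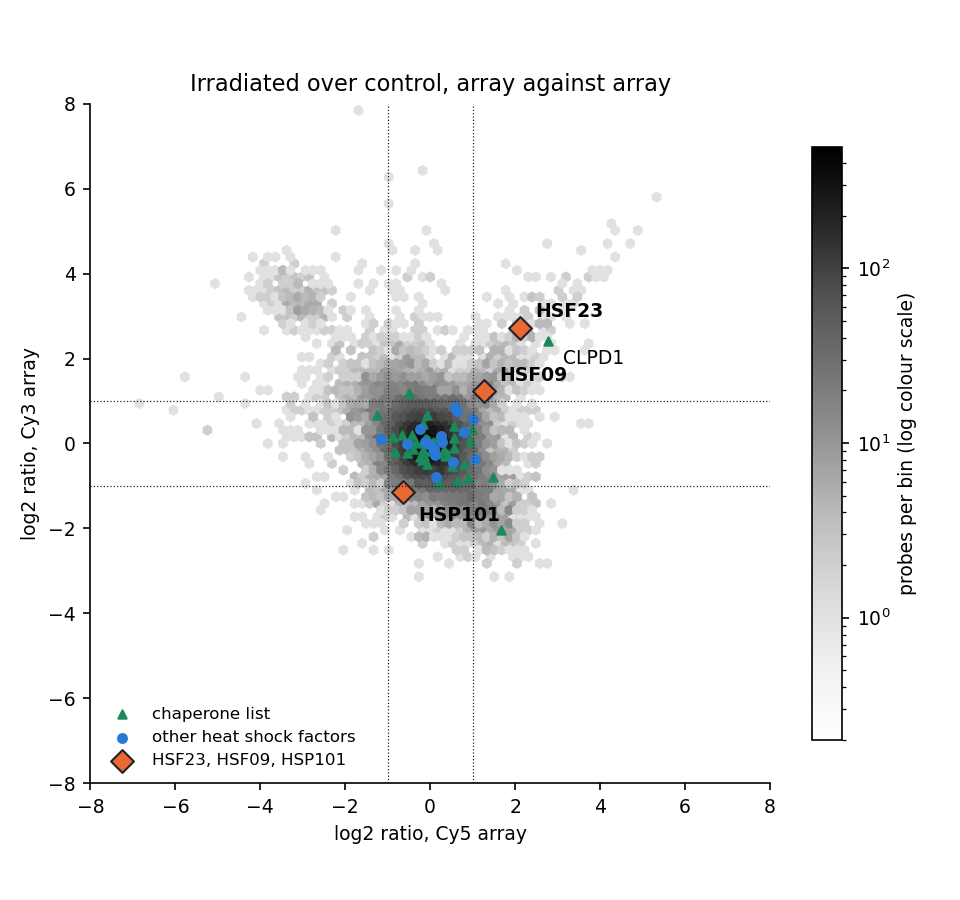
Log2 ratio on the Cy3 array (vertical axis) against that on the Cy5 array (horizontal axis) for 22574 probes, as grey bins with a log colour scale, with the chaperone list as green triangles, other heat shock factors as blue circles and the members as orange diamonds. Dotted lines mark 2-fold; HSF23 sits at 2.12 and 2.73, HSF09 at 1.27 and 1.23 and HSP101 at -0.63 and -1.15.

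The probes most like each member were found by the distance between their pairs of array ratios, over 2 arrays and 2301 probes of genes with a name. Nearest to HSF23 were DCL2A, a Dicer-like enzyme, at a distance of 0.17, the NAC factor NAC45 at 0.24 and the jasmonate repressor JAZ11 at 0.26. Nearest to HSF09 were a peroxidase (LOC4344277) at 0.058, the receptor-like kinase CRK6 at 0.15 and MAPKK1, a MAP kinase kinase, at 0.16. Nearest to HSP101 were GI, the clock gene GIGANTEA, at 0.079, LSD1 at 0.081 and D14, the strigolactone receptor, at 0.16. With 2 values a probe, this likeness ranks size and direction only.

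Medians of neighbouring spots, by the recovered grid, were smaller in size than the members' ratios, and a local effect of the slide was not tested. The median of the spots within 3 rows and 3 columns was -0.06 and 0.16 on the arrays around HSF23, 0.25 and -0.13 around HSF09, and 0.28 and -0.09 around HSP101. Once these medians were subtracted, the means were 2.38, 1.19 and -0.98.

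**Figure D5:**
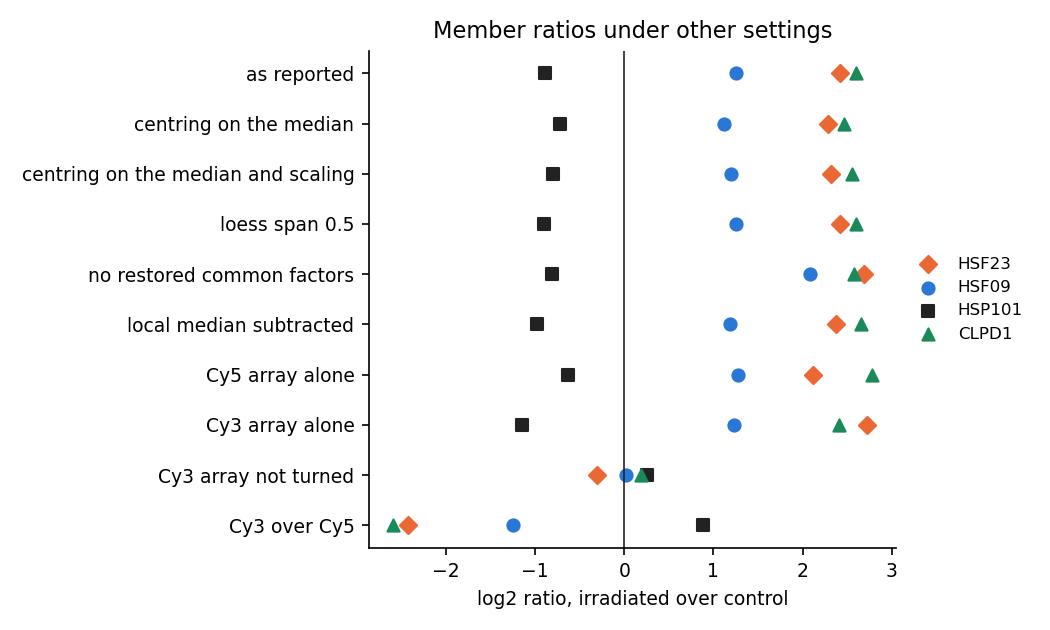
Mean log2 ratio of irradiated over control (horizontal axis) of HSF23, HSF09, HSP101 and CLPD1 as reported and under 9 other settings (rows). Centring, the loess span and the local median leave the mean of each gene near its value. Single-array values under median centring, which moved more, are not drawn. No restored factors moves HSF09 to 2.09. Among the drawn values a sign turns only with the Cy3 array not turned or with Cy3 over Cy5.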

How the data were processed

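The deposited table holds log10 ratios of the channels of each array, 22575 a column, with 1 value missing. The series' design text names GeneSpring Ver. 4, but the deposited log10 columns had medians of 0.051 and 0.20, so they were taken as not normalized. Background handling and the numerator were not given in the sources used here. Turned back into fractions within the 9 decimals printed, values of the Cy5 array (irradiated RNA in Cy5) had median terms of 143 and 163, against 31331 after a small random change, so ratios were read as whole-number intensities. Their geometric mean, with likely common factors up to 59 put back, gave a rough intensity. Loess (statsmodels 0.14.6, span 0.3, 3 robustness iterations) removed the trend, residuals were taken to log2, and the Cy3 array was turned. The steps were also run on simulated arrays with the same noise at every intensity. The measured arrays differed more at dim spots, so that run does not show how the steps perform there.

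Genes came from the platform annotation (17839 probes with 1 gene) through the RefSeq table of assembly ASM3414082v1, by the numbering on a grid of 105 rows and 215 columns. Named were all probes of the members and of other heat shock factors, the highest, the lowest and any past 2-fold in each chaperone class, and the 3 probes nearest to each member. HSP18.8 and the rest of the HSP100 family were added after values were seen. The tables hold names and no descriptions, so classes were matched by name, J proteins by names chosen after values were seen, and BIP names with 3 digits were left out. Members and lists were chosen with earlier results of these data known. A probe was counted past a fold only if it was so on both arrays. No test was possible with 1 replicate per group. Alternatives were other centring, scaling, intensities, span, single arrays, dye readings, numbering, folds and local medians, the last chosen after seeing the data.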

Additional observations from a re-analysis of the deposited data

How the results depend on the processing

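No paired analysis was possible because there was 1 replicate per group and no test. Local median subtraction was chosen after seeing the data. For HSF23, HSF09 and HSP101 the mean ratio stayed within the array-deviation SD of its decile under either median centring, the wider span and local medians. The mean is a weak check of centring, because trends of the same sign on both arrays largely cancel in it once the Cy3 array is turned. Median centring moved single arrays more: HSF09 from 1.27 and 1.23 to 2.14 and 0.11, and HSP101 from -0.63 and -1.15 to -1.67 and 0.22. With the loess trend removed, HSF23 was 2.12 on the Cy5 array alone and 2.73 on the Cy3 array alone. Without restored common factors it was 2.69 and HSF09 was 2.09, and the median of the heat shock factors was 0.34. With the Cy3 array not turned, HSF23 was -0.30, HSF09 0.023 and HSP101 0.26. With Cy3 over Cy5 they were -2.42, -1.25 and 0.89, and CLPD1 was -2.59. With probe numbers as listed, other spots carry the names, at 0.71, 0.34 and 0.0030.

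The counts of 432 higher and 62 lower among all probes were 257 and 27 after median centring, 251 and 28 after centring plus scaling, 841 and 370 at 1.5-fold, 183 and 6 at 3-fold, and 676 and 228 by the mean of both arrays. The Cy5 array alone gave 1770 and 1439, the Cy3 array alone 1969 and 1566, and Cy3 over Cy5 gave 62 and 432. Not turned, 592 were lower. The 2 higher heat shock factor probes were 1 with median centring, with or without scaling, and at 3-fold, and 4 at 1.5-fold. They were 0 with Cy3 over Cy5, with the Cy3 array not turned and with numbers as listed. The 0 lower ones were 1 on the Cy5 array alone and 2 with Cy3 over Cy5. Of the chaperone list, 3 were higher and 1 lower on the Cy5 array alone, 2 and 2 on the Cy3 array alone, and 0 and 1 with Cy3 over Cy5. There were 2 higher with numbers as listed, and 1 lower at 1.5-fold. The median of the heat shock factors was 0.26 on the Cy5 array alone. The chaperone median of -0.018 was -0.095 after median centring, -0.055 after centring plus scaling, -0.10 on the Cy3 array alone, 0.018 with Cy3 over Cy5, 0.075 not turned and 0.094 with numbers as listed. The cause of these shifts was not tested. Of the 19 factor probes 8, and of the 45 chaperone probes 17, lay in intensity deciles 1 to 5, where the array-deviation SD was 0.42 to 0.94.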
